A study of Mus musculus with 6 samples.

Results

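Signalling from the parathyroid hormone receptor through G proteins, cyclic AMP (cAMP) and protein kinase A (PKA) was examined with a set of 44 genes in newborn mouse calvaria, the roof of the skull. The genes were chosen by name from 24346 gene names and sorted into 8 role groups: G alpha subunits, adenylyl cyclases, PKA subunits, CREB and its coactivators, salt-inducible kinases with histone deacetylases, phosphodiesterases, arrestins with Rgs2, and the Nr4a targets. All 44 were listed in the files, and 43 had a mean of at least 1 FPKM (fragments mapped to a gene, scaled by transcript length and library total) over the libraries and were tested. Nr4a3 lay below that level. The choice used no measured difference between the groups, but results of these data were known when it was made.

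Messenger RNA was sequenced in 6 libraries of newborn calvaria, with the bones at the back of the skull kept and ear cartilage left out. The 3 controls carried the floxed receptor allele without Cre (Pth1rfl/fl), and the 3 libraries labelled mutant carried Prx1-Cre with the same allele (Prx1-Cre;Pth1rfl/fl), so the floxed allele was common to all 6. The Prx1 promoter is known to drive Cre in mesenchyme of the limbs and of part of the skull, which leaves blood-derived cells, muscle fibres and nerve tissue with an unrecombined receptor gene. Age beyond newborn, strain and sex were not given in the labels. The labels number the libraries within a group but do not say that each is a separate animal, so the p-values measure only the spread between these libraries, part of which may be technical.

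Binding of parathyroid hormone or parathyroid hormone-related protein to Pth1r activates mainly the stimulatory G protein, whose alpha subunit switches on adenylyl cyclases. The cAMP they make releases the catalytic subunits of PKA from the regulatory subunits, and PKA phosphorylates CREB, which then induces target genes such as Nr4a1. PKA also inhibits the salt-inducible kinases, so that CRTC coactivators and class IIa histone deacetylases enter the nucleus. Phosphodiesterases break cAMP down, and arrestins and RGS proteins end the signal nearer the receptor. In skeletal tissue this pathway is known to hold back cartilage maturation and to set how bone-forming cells drive osteoclasts, the cells that resorb bone.

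The targeted gene did not follow the labels. Pth1r had 89.2, 93.3 and 102 FPKM in controls 1 to 3, against 127, 125 and 142 FPKM in libraries 1 to 3 labelled mutant, so that all of the latter were higher. The ratio of means, labelled mutant over control as in every ratio of groups below, was 1.38, with an exact two-sided permutation p of 0.1, the smallest that 3 values against 3 allow, while limma gave an adjusted p of 0.065. Which exons the floxed allele loses is not given in the sources used here. The gene value may hold fragments of exons that remain, and Pth1r shares 95 exon bases with Myl3 on the other strand. Why the value was higher was not tested. Each direction below is therefore that of the labels alone.

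Of the 43 tested genes, 0 were higher and 0 lower at the adjusted threshold of 0.05 (limma, Benjamini-Hochberg over 13180 genes). Over all genes tested, 0.607% passed that threshold, 0.524% higher and 0.0835% lower. At an unadjusted p under 0.05, 4 of the 43 genes (9.30%) were found, namely Adcy3, Gna13, Arrb2 and Sik2, all with higher values in the libraries labelled mutant, beside 10.5% of all genes tested in either direction and 5.91% higher. The groups did not overlap for 8 of the 43 (18.6%), beside 16.1% of all genes. By direction, 7 of the 43 (16.3%) did not overlap and were higher, beside 9.34% of all genes, and 1 (2.33%) was lower, beside 6.79%. Among the 7 is Pde10a, with a control mean of 0.915 FPKM. It reached the level required for testing only through the libraries labelled mutant. The median log2 difference of the 43 genes was 0.014, beside 0.0015 for all genes, and the median size of a difference regardless of sign was 0.079, beside 0.080. The shares in either direction and the medians lay near those of all genes, while the shares with higher values were above those of all genes; no test of the set was made.

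The intervals of the differences were narrow. Log2 differences are of FPKM + 1, which understates changes of genes near 1 FPKM. For all 43 genes the 95% interval from limma lay within a log2 difference of 1 either way, that is, within a doubling or a halving of FPKM + 1, and for 40 it lay within 0.5 either way. The interval bound farthest below 0 was -0.48, for Sik1, and the one farthest above was 0.61, for Adcy3. No member had a difference of 0.5 or more, while 3.03% of all genes did.

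**Figure D1:**
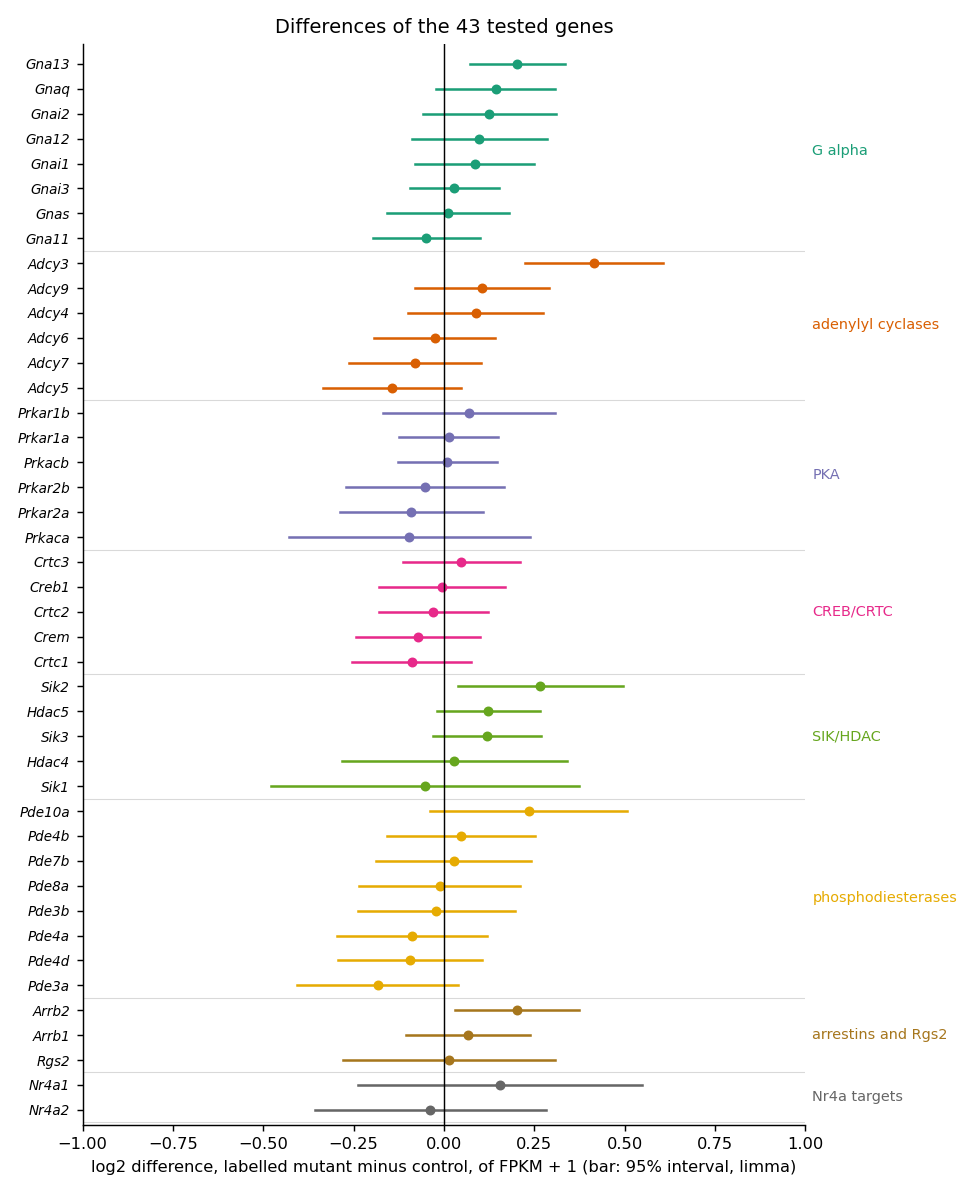
Log2 difference (labelled mutant minus control, of FPKM + 1) of each of the 43 tested genes, grouped by role, with its 95% interval from limma as a bar. Adcy3, Gna13, Arrb2 and Sik2 are the 4 genes whose interval leaves out 0, before any adjustment for the number of genes tested.

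**Figure D2:**
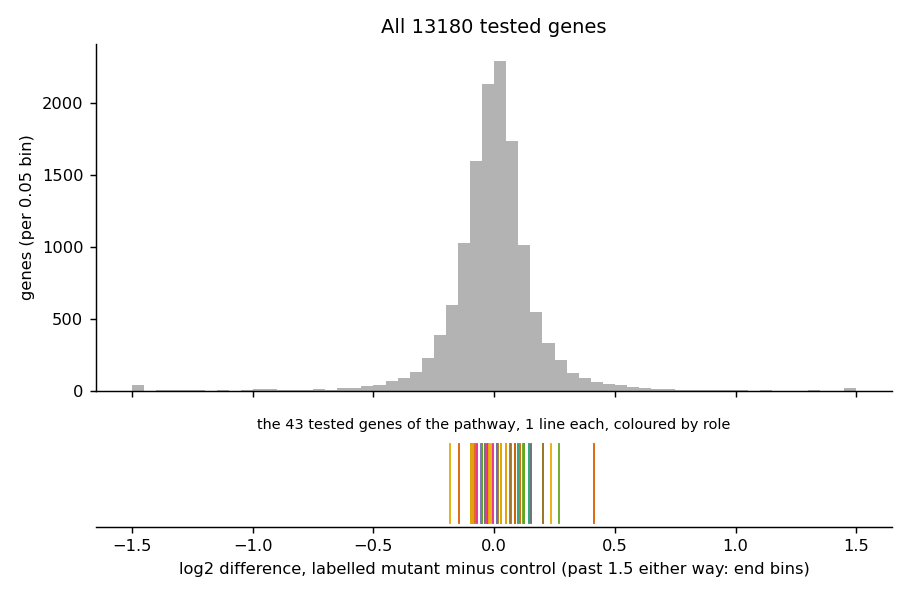
Histogram of the log2 differences of all 13180 tested genes above, and 1 line for each of the 43 tested genes below, on the same axis. The lines lie between -0.18 and 0.42; Adcy3 is the one farthest from 0, and 4.29% of all tested genes lie farther out in either direction.

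Calvaria tissue was recognisable in every library, and its makeup differed between them. The bone collagen genes Col1a1 and Col1a2 had 9427 to 13131 and 7474 to 10362 FPKM. The summed FPKM of 10 osteoclast markers ran from 637 to 713 in the controls, against 1687 to 1839 in those labelled mutant, with 9 of the 10 past the threshold. That of 10 cartilage markers ran from 1113 to 2200 and from 562 to 711, with 2 of 10 past the threshold and lower, and control 3 was the low control. Skeletal muscle markers summed to between 11785 and 19265 FPKM in controls and between 10070 and 17107 in the others, so muscle RNA was abundant in all. Neural markers summed to 56.1 to 63.5 and 22.6 to 115, with library 2 labelled mutant the highest, and inner ear markers summed to 80.2 FPKM in control 2 (Oc90 at 56.6) and to between 1.07 and 3.65 in the other 5 libraries. Of the markers of macrophages 2 of 7 passed, of osteoblasts 1 of 9 and of vessels 1 of 7, all higher. None passed of red cells, neutrophils, muscle, nerve, inner ear and skin. The 2 macrophage markers were Cd68 and Csf1r, at ratios of 1.99 and 1.49, while the rest ran from 1.04 (C1qa) to 1.19 (Adgre1). Relative depth, read from the steps of the lowest values with control 1 set to 1, ran from 0.703 to 0.971 in the other libraries. Xist exceeded the summed Y-linked genes in controls 1 and 3 and in library 1 labelled mutant, and the reverse held in control 2 and in libraries 2 and 3 labelled mutant.

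Among the G alpha subunits, the stimulatory subunit gene was by far the most abundant. Gnas had 1597, 1486 and 1565 FPKM in the controls, against 1519, 1533 and 1638 in those labelled mutant. These ranges overlapped, and the means of 1549 ± 57.5 and 1563 ± 65.0 FPKM (SD, n = 3 each) gave a log2 difference of 0.01 with a 95% interval from -0.16 to 0.18 (adjusted p = 0.975, limma). Gnas made up between 81.8% and 84.0% of the summed FPKM of the 8 subunit genes in every library, and its level lay at the 99.7th percentile of the genes tested. The Gnas locus on chromosome 2 has several start sites and an antisense partner, Nespas, with which it shares exon bases, and a value for the whole gene does not part its transcripts.

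The inhibitory subunit genes came next. Gnai2, the most abundant of them, had 191 ± 10.04 FPKM in controls and 208 ± 17.3 in the libraries labelled mutant (SD, n = 3 each), with 228 FPKM in library 3 as the highest value and the others from 181 to 201. Gnai3 stayed between 36.8 and 39.3 FPKM and Gnai1 between 9.48 and 10.98 FPKM over the 6 libraries. The ratio of Gnas to the summed inhibitory genes was 6.49 ± 0.47 in controls and 6.06 ± 0.17 in the others (SD, n = 3 each), with overlapping values.

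Gna13 had the second smallest unadjusted p of the set. Its values were 8.85, 8.70 and 8.91 FPKM in the controls, against 10.5, 10.1 and 10.4 in those labelled mutant. Every library labelled mutant lay above every control, but at a ratio of 1.17 the distance was small, and its log2 difference, 0.20 ± 0.06 (SE), did not pass (unadjusted p = 0.00819, adjusted p = 0.233, limma). Its close relative Gna12 ran from 18.3 to 22.5 FPKM in the controls, against 21.4 to 21.96 in those labelled mutant. Of the subunit genes that signal through phospholipase C, Gnaq had 11.2 to 11.7 and 12.2 to 13.9 FPKM without overlap (adjusted p = 0.557, limma), and Gna11 had 36.1 to 40.1 and 36.4 to 38.6. Of the 8 subunit genes, 7 pointed up and 1 down (6 and 2 with quantile normalization, which turned Gnas), with a median log2 difference of 0.09.

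**Figure D3:**
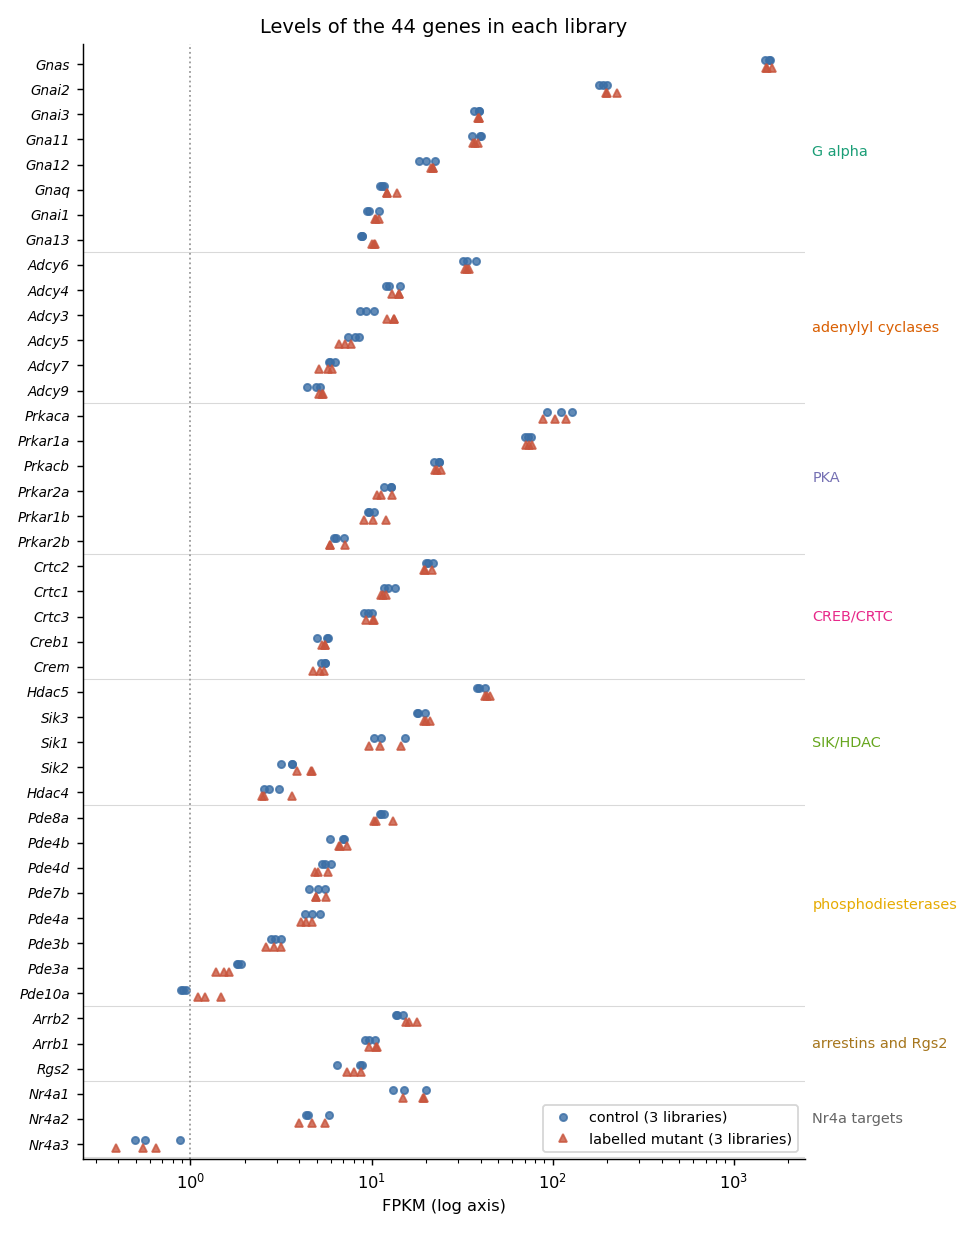
FPKM (log axis) of all 44 genes in each of the 6 libraries, with controls as circles and the libraries labelled mutant as triangles, grouped by role and ordered by mean level. The dotted line marks 1 FPKM, the level required for testing, and Gnas stands at the top of the range and Nr4a3 at the bottom.

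Adenylyl cyclases held the largest difference of the set. Adcy3, a membrane cyclase best known from olfactory neurons and primary cilia, had 8.60, 10.3 and 9.35 FPKM in the controls, against 13.3, 12.1 and 13.3 in those labelled mutant. The groups did not overlap, and the means of 9.43 ± 0.88 and 12.9 ± 0.68 FPKM (SD, n = 3 each) gave a ratio of 1.37. Its log2 difference was 0.42 ± 0.08 (SE), with a 95% interval from 0.22 to 0.61, short of the threshold (unadjusted p = 0.00135, adjusted p = 0.105, limma), and by unadjusted p the gene stood at rank 170 of 13180. With the libraries weighted by their fitted quality (array weights) it passed, with an adjusted p of 0.032, and over all the settings tried its adjusted p ran from 0.032 to 0.291.

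Adcy3 shares exons with a neighbour. In GENCODE M21 on GRCm38, Adcy3 spans positions 4133103 to 4213525 of chromosome 12 on the plus strand and shares 1380 exon bases with Cenpo, a centromere protein gene on the other strand. Whether strand was used in counting is not given in the sources used here. Cenpo had 4.495, 5.58 and 4.69 FPKM in the controls, against 6.19, 6.34 and 6.04 in those labelled mutant, also without overlap (adjusted p = 0.27, limma), and its part in the Adcy3 value was not tested.

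The other cyclases stayed closer together. Adcy6, which is inhibited by calcium and was the most abundant, had 33.7, 37.7 and 32.2 FPKM in the controls, against 33.0, 34.7 and 33.8 in those labelled mutant, which lay inside the control range (log2 difference -0.03, 95% interval -0.19 to 0.14). Adcy5, its nearest relative, ran from 7.43 to 8.48 and from 6.57 to 7.73 FPKM, and Adcy4 from 12.0 to 14.3 and from 13.03 to 14.1. Adcy7 and Adcy9 had means between 4.85 and 5.996 FPKM in either group. Adcy6 gave between 42.0% and 46.7% of the summed FPKM of the 6 cyclase genes, while the share of Adcy3 spanned 11.8% to 12.8% in the controls, against 15.5% to 16.9% in those labelled mutant. Of the 6 genes, 3 pointed up and 3 down.

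None of the 6 PKA subunit genes separated the groups. Prkaca, the main catalytic subunit gene, had 127, 93.6 and 112 FPKM in the controls, against 103, 119 and 88.7 in those labelled mutant. The spread within each group was larger than the distance between the means of 111 ± 16.9 and 104 ± 15.1 FPKM (SD, n = 3 each), and the log2 difference of -0.10 had a 95% interval from -0.43 to 0.24 (adjusted p = 0.891, limma). Prkar1a, the most abundant regulatory subunit gene, was tighter, from 70.6 to 76.2 FPKM in the controls, against 71.1 to 76.8 in those labelled mutant. The second catalytic gene, Prkacb, ran from 22.2 to 24.2 FPKM over all 6 libraries.

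The remaining regulatory genes were lower in abundance. Prkar2a had 11.7, 12.8 and 12.7 FPKM in the controls, against 11.3, 12.98 and 10.7 in those labelled mutant, and its groups overlapped (log2 difference -0.09, 95% interval -0.29 to 0.11). Prkar1b, known mainly from neurons, reached 12.1 FPKM in library 2 labelled mutant, which also had the highest neural marker sum. It had 9.06 in library 3 labelled mutant, which had the lowest sum, and ran from 9.62 to 10.3 elsewhere. Between these extremes the order did not hold. Control 3 had a neural sum of 63.5 with Prkar1b at 9.62, and library 1 labelled mutant a sum of 41.7 with 10.2. The part of nerve tissue in the Prkar1b values was not tested. Prkar2b ran from 5.86 to 7.12 FPKM. The ratio of summed catalytic to summed regulatory FPKM was 1.52, 1.10 and 1.32 in controls and 1.24, 1.30 and 1.17 in the libraries labelled mutant, so the control range held all the others.

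Prkaca was the 1 gene of the 44 whose libraries fell in the same order as the summed skeletal muscle markers. It was found by comparing all 44 genes, and the share of all genes tested with that order was not counted. From high to low that order was control 1, library 2 labelled mutant, control 3, library 1 labelled mutant, control 2 and library 3 labelled mutant. Muscle is known to hold much PKA, and the part of muscle in these values was not tested. In bulk tissue, fewer cells of a type and less RNA per cell cannot be told apart.

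**Figure D4:**
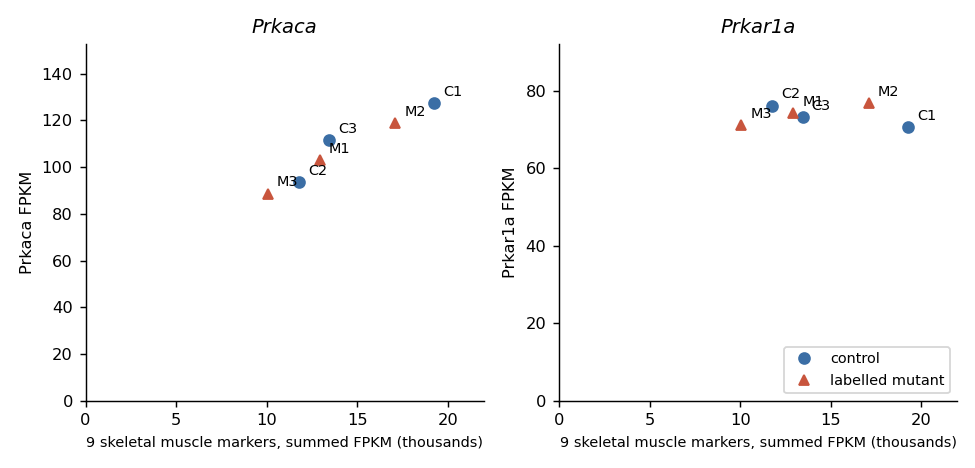
FPKM of Prkaca (left) and Prkar1a (right) against the summed FPKM of 9 skeletal muscle markers, with 1 point per library (C, control; M, labelled mutant). The 6 Prkaca values, from 88.7 to 127 FPKM, follow the order of the muscle sum, while Prkar1a stays between 70.6 and 76.8.

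CREB and its coactivators showed the smallest differences of any role group, none beyond a log2 value of 0.09 either way. Creb1, the factor that PKA activates, had 5.02, 5.67 and 5.76 FPKM in the controls, against 5.30, 5.55 and 5.51 in those labelled mutant. The latter lay inside the control range, and the log2 difference was -0.0047 with a 95% interval from -0.18 to 0.17 (adjusted p = 0.989, limma). Crem, whose short cAMP-induced form represses CREB targets, ran from 5.28 to 5.53 and from 4.75 to 5.43 FPKM, and the gene value does not part its forms. Crtc2, the most abundant coactivator gene, had 20.0, 21.8 and 20.4 FPKM in the controls, against 19.6, 19.8 and 21.5 in the others. Crtc1 had 11.7, 13.4 and 12.3 FPKM in the controls, against 11.5, 12.1 and 11.3 in those labelled mutant, overlapping (adjusted p = 0.747, limma), and Crtc3 ran from 9.11 to 10.3 over all. Of the 5 genes, 1 pointed up and 4 down.

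In the branch of salt-inducible kinases and histone deacetylases, 4 of 5 genes had a higher value, with none past the threshold. Sik2, a PKA-inhibited kinase, had 3.15, 3.64 and 3.64 FPKM in the controls, against 3.85, 4.71 and 4.62 in those labelled mutant. Its groups did not overlap, though library 1 labelled mutant lay close to controls 2 and 3, and its log2 difference, 0.27 ± 0.10 (SE), did not pass at a ratio of 1.26 (unadjusted p = 0.0279, adjusted p = 0.377, limma). Sik2 shares 1429 exon bases with Ppp2r1b, a phosphatase subunit gene on the other strand, which ran from 9.24 to 11.1 FPKM in the controls, against 9.26 to 12.4 in those labelled mutant. Hdac5, the most abundant of the branch, had 42.4, 39.4 and 38.2 FPKM in the controls, against 43.4, 42.4 and 45.0 in those labelled mutant, with control 1 and library 2 nearly touching (ratio 1.09, adjusted p = 0.562, limma).

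Sik3, which acts beside Sik2 in bone and cartilage cells, ran from 17.8 to 19.6 FPKM in the controls, against 19.5 to 21.1 in those labelled mutant, overlapping. Hdac4, known to restrain chondrocyte maturation, had its highest value of 3.63 FPKM in library 2 labelled mutant and ran from 2.49 to 3.08 elsewhere. Sik1, itself a CREB target, was highest in control 1 (15.4 FPKM) and library 1 labelled mutant (14.6 FPKM) and ran from 9.68 to 11.2 in the other 4 libraries, which gave it the widest interval of the branch (-0.48 to 0.37).

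Phosphodiesterase genes split in direction, with 3 higher and 5 lower values and a median log2 difference of -0.02. Pde8a, a cAMP-specific enzyme gene and the most abundant of the 8, had 11.1, 11.3 and 11.7 FPKM in the controls, against 10.3, 10.6 and 13.1 in those labelled mutant. Libraries 1 and 2 lay below and library 3 above every control, for a log2 difference of -0.01 (95% interval -0.23 to 0.21). Pde10a, an enzyme of both cAMP and cGMP breakdown, had 0.941, 0.892 and 0.913 FPKM in the controls, against 1.202, 1.48 and 1.09 in those labelled mutant. Its groups did not overlap, but its mean over the libraries was just above the level required for testing, controls lay below that level, and the difference did not pass (ratio 1.38, log2 difference 0.24 ± 0.12 SE, adjusted p = 0.561, limma).

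Pde3a, a cAMP phosphodiesterase that cGMP inhibits, was the 1 gene of the set with all libraries labelled mutant below all controls, at 1.38 to 1.63 against 1.82 to 1.91 FPKM (ratio 0.817, adjusted p = 0.582, limma). The Pde4 genes, whose enzymes are cAMP-specific and include CREB-induced forms, overlapped throughout, with Pde4b from 5.87 to 7.30, Pde4d from 4.84 to 5.99 and Pde4a from 4.07 to 5.17 FPKM over the 6 libraries. Pde3b ran from 2.61 to 3.18 and Pde7b from 4.53 to 5.62 FPKM.

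Arrb2, the gene of beta-arrestin that desensitises receptors and carries them into the cell, had 13.9, 15.02 and 13.7 FPKM in the controls, against 17.9, 15.5 and 16.2 in those labelled mutant. The groups did not overlap, with control 2 and library 2 labelled mutant nearest to each other, and at a ratio of 1.16 its log2 difference, 0.20 ± 0.07 (SE), was short of the threshold (unadjusted p = 0.0273, adjusted p = 0.374, limma). Its partner Arrb1 ran from 9.25 to 10.5 FPKM in the controls, against 9.64 to 10.7 in those labelled mutant. Rgs2, a cAMP-induced brake on G protein signalling, was lowest in control 1 at 6.44 FPKM and ran from 7.31 to 8.81 elsewhere, with means of 7.98 ± 1.34 and 8.01 ± 0.72 FPKM (SD, n = 3 each). Adcy3, Gna13, Sik2 and Arrb2 had their 3 highest values in the libraries in which the osteoclast marker sum given above was also highest. That follows from groups that did not overlap and were higher, as in 9.34% of all genes tested, and tells nothing beyond the labels. None of the 10 osteoclast markers was at 0 in any library. Macrophage and vessel sums lay in the same order of groups, from 332 to 379 against 420.0 to 445 FPKM and from 203 to 213 against 242 to 246 FPKM. The part of these cells in the values of the 4 genes was not tested.

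The Nr4a genes encode nuclear receptors that parathyroid hormone induces within hours through cAMP, and they serve here as the transcriptional end of the pathway. Their promoters are shown because they carry repeats of the core of the cAMP response element, the sequence that CREB binds. The full element is TGACGTCA, and the core TGACG, or CGTCA on the other strand, is contained in it. Windows from RefSeq on GRCm38.p6, 250 bases before to 50 after a start site, were at hand for 35 of the 44 genes, in 60 windows. The core was present in 24 of these windows (40.0%), beside 20.8% of all 32851 windows and 30.2% of those of tested genes. Each of Nr4a1, Nr4a2 and Nr4a3 held 4 cores, more than any other window of the set, and windows with 4 or more made up 0.231% of all windows and 0.524% of those of tested genes. The full element was found in 1 of the 35 genes, Prkar1a, in 2 overlapping windows. That is 2.86% of the 35 genes, beside 2.03% of all genes with a window and 3.6% of the tested genes with one. The other 9 genes, Adcy6, Arrb1, Arrb2, Crem, Crtc2, Gnai2, Pde3a, Pde3b and Sik1, had no window and were not searched. Overlapping windows share sequence, and a match is a description of letters, not of binding. The 250 bases before the start site are given below 5′ to 3′ on the strand of the gene, with cores in capitals, for the Nr4a genes, for Prkar1a with its full element and for Sik3, which had 3 cores before its start.
Nr4a1, chr15:101266596-101266845, plus strand: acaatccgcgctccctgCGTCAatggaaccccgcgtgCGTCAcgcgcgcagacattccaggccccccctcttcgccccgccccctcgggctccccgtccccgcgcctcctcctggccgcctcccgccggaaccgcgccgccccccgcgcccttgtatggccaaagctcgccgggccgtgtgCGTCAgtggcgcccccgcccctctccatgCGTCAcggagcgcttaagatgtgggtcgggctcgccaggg
Nr4a2, chr2:57124004-57124253, minus strand: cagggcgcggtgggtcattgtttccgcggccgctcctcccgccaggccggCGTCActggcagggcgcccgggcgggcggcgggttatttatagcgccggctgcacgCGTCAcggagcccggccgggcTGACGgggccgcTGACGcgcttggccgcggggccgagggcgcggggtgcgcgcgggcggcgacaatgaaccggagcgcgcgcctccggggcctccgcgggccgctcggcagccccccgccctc
Nr4a3, chr4:48045055-48045304, plus strand: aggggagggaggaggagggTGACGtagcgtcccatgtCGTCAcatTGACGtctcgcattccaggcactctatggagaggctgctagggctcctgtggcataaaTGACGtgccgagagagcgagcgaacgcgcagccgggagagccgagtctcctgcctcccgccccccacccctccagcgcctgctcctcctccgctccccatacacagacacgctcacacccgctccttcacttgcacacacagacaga
Prkar1a, chr11:109650699-109650948, plus strand: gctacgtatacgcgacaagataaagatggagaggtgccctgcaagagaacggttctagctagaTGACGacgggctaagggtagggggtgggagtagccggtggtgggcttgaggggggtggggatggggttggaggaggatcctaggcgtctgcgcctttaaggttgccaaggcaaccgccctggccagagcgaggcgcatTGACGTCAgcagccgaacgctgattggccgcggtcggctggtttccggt
Sik3, chr9:46012570-46012819, plus strand: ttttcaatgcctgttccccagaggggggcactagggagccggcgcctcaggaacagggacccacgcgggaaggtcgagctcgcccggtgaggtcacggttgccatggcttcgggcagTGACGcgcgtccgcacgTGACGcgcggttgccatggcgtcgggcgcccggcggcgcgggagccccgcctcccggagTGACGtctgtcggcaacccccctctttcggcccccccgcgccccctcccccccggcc

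In Nr4a1 the cores begin 233, 213, 69 and 40 bases before the start, and in Nr4a3 they gather farther out, from 231 to 147 bases before it. None of these genes passed the threshold. Nr4a1 had 13.1, 20.1 and 15.05 FPKM in the controls, against 14.8, 19.2 and 19.6 in those labelled mutant. Its values fell into a lower and a higher set across both groups, and the log2 difference of 0.15 had a wide 95% interval from -0.24 to 0.55 (adjusted p = 0.836, limma). Nr4a2 had 4.34, 5.79 and 4.49 FPKM in the controls, against 3.96, 4.70 and 5.51 in those labelled mutant (log2 difference -0.04, adjusted p = 0.961, limma). Nr4a3, not tested, had 0.494, 0.872 and 0.562 FPKM and 0.548, 0.647 and 0.386 FPKM.

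Control 2 and libraries 2 and 3 labelled mutant had the 3 highest values of both Nr4a1 and Nr4a2. Nr4a3 did not follow, with its lowest value in library 3 labelled mutant. The same 3 libraries had the lowest relative depth, at 0.844, 0.778 and 0.703, and were those in which Y-linked genes exceeded Xist. In these 6 libraries low depth and Y-linked expression cannot be told apart. With sex as a term in the fit, the log2 difference of Nr4a1 was 0.013 in place of 0.15 (adjusted p = 0.973, limma). Leaving out 1 library also moved it, to 0.026 without control 1 and 0.32 without control 2, and over all 16 settings its adjusted p ran from 0.579 to 0.983.

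Immediate early genes, which stimuli and tissue handling also induce, were set beside the Nr4a genes. Of the 20 listed, 18 were tested and none passed in limma. At an unadjusted p under 0.05, 4 (22.2%) were found, all with higher values. Of all genes tested, 10.5% were found in either direction and 5.91% higher. Zfp36, which encodes an RNA-destabilising protein, had 19.1, 23.1 and 17.9 FPKM in the controls, against 26.5, 34.5 and 35.8 in those labelled mutant, without overlap (log2 difference 0.66 ± 0.14 SE, adjusted p = 0.123, limma). Fos, an AP-1 subunit gene that was picked here once its values were known, had 10.6, 27.1 and 14.8 FPKM and 23.8, 33.8 and 45.3 FPKM, and control 2 again was the high control (adjusted p = 0.36, limma). The list's median log2 difference was 0.19, with 15 of 18 values higher (83.3%, beside 50.5% of all genes). The groups did not overlap for 2 of the 18 (11.1%), both higher, beside 16.1% of all genes in either direction and 9.34% higher. The Nr4a, Crem, Sik1 and Rgs2 values given above overlapped as well. The 3 libraries with the highest Nr4a1 and Nr4a2 values also had the highest Fos, Fosb, Junb, Egr1, Ier2, Ier3 and Atf3 values. Those of Jun, Egr3 and Zfp36, among others of the list, were ordered otherwise. This pattern was found by looking through the list, and the part of tissue handling in the Nr4a values was not tested.

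**Figure D5:**
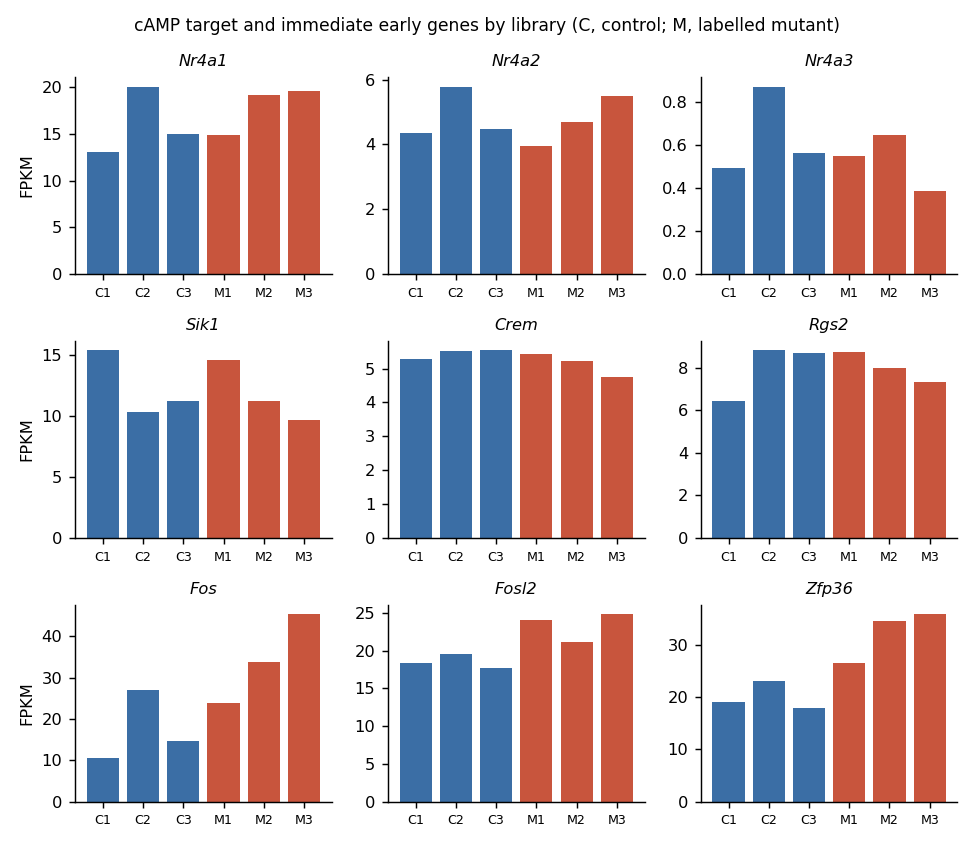
FPKM in each library (C, control; M, labelled mutant) of the Nr4a genes, of Sik1, Crem and Rgs2, and of the immediate early genes Fos, Fosl2 and Zfp36, with a separate vertical axis from 0 for each gene. Nr4a1 is high in C2, M2 and M3, Sik1 is high in C1 and M1, and Fosl2 and Zfp36 are higher in all 3 libraries labelled mutant than in any control. These 2 are the only ones of the 18 tested immediate early genes without overlap, so they do not stand for the list.

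A further 88 genes around the pathway, from G beta and gamma subunits to PKA anchors, receptor kinases, RGS proteins and the phospholipase C arm, were counted beside the set. Of them 71 were tested, and none passed in either direction in limma. An unadjusted p under 0.05 was found for 9 of the 71, beside 1388 of all 13180 genes (10.5%). The groups did not overlap for 11 of the 71 with higher and 3 with lower values, beside 9.34% and 6.79% of all genes. The median log2 difference of the 71 was 0.02, with 41 higher and 30 lower values. The smallest p of this list belonged to Rgs10, an RGS protein gene known from microglia and osteoclasts, with 16.8, 15.8 and 16.7 FPKM in the controls, against 22.9, 19.4 and 21.99 in those labelled mutant (log2 difference 0.36, adjusted p = 0.119, limma). The receptor kinase gene Adrbk2, now named Grk3, averaged 3.70 ± 0.23 in the controls against 5.65 ± 0.91 FPKM (SD, n = 3 each), with an adjusted p of 0.153 in limma.

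The genes with the smallest p in the remaining lists did not pass either. Akap12, which anchors PKA at the membrane, had 53.0, 54.4 and 54.2 FPKM in the controls, against 46.5, 48.1 and 47.8 in those labelled mutant, a lower value in every library by a ratio of 0.882 (adjusted p = 0.235, limma). Plcb2, a phospholipase C gene of blood-derived cells, averaged 0.896 ± 0.16 against 1.71 ± 0.33 FPKM (SD, n = 3 each), with an adjusted p of 0.217 in limma. As with Pde10a, its control mean lay under 1 FPKM, and it was tested only through the higher values of the libraries labelled mutant. Hdac9, a class IIa histone deacetylase gene, had 1.88 ± 0.39 and 2.72 ± 0.03 FPKM (adjusted p = 0.286, limma), and Pde1a, a calcium-activated phosphodiesterase gene, 2.46 ± 0.51 and 3.73 ± 0.68 FPKM (adjusted p = 0.336, limma; SD, n = 3 each). Gng11, a gamma subunit gene, had 51.8 ± 3.63 and 58.0 ± 3.81 FPKM (adjusted p = 0.545, limma) and Gnao1, the neuronal G alpha gene, 8.37 ± 0.15 and 8.78 ± 3.22 FPKM (adjusted p = 0.99, limma; SD, n = 3 each), with 12.4 FPKM in library 2 labelled mutant, where neural markers were highest.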

How the data were processed

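Per the labels' protocols, homogenised calvaria gave total RNA for stranded messenger RNA libraries. The authors deposited FPKM values. The submitters' processing notes name TopHat2 (2.0.13), Bowtie2 (2.2.3), SAMtools (0.1.19), Cufflinks (2.2.1) and mm10; the annotation, the strand setting and the totals of reads are not given in the sources used here. FPKM divides by transcript length and library total, and overlapping genes compete for fragments. Absolute depth is unknown, no count test was run, and the spread between libraries sets the precision.

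Genes averaging 1 FPKM or more were fitted on the scale of log2(FPKM + 1) by limma (3.58.1, R 4.3.3; eBayes with trend, group as the 1 term, two-sided, Benjamini-Hochberg over 13180 genes, threshold 0.05), a procedure tested on simulated data. The simulated noise was drawn separately for each gene, so differences in tissue makeup shared between genes were not part of it. Members and lists were chosen with earlier results of these data known. Every library's value is given for members with an unadjusted p under 0.05, for the most abundant and the smallest-p member of each role group, and for Gnas, Creb1 and Nr4a1, besides others a sentence turns on. Other lists are named by their smallest p, except where a sentence says otherwise. The 16 other settings changed the pseudocount, filter, scaling, variance model, weights, model terms (replicate block, sex by Xist and Y-linked genes) or left out 1 library. Gene positions come from GENCODE M21 (GRCm38, which mm10 denotes).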

Additional observations from a re-analysis of the deposited data

How the results depend on the processing

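The count of members past the threshold stayed at 0 higher and 0 lower in 15 of the 16 other settings, among them each fit without 1 library (0 to 0) and the paired fit with a replicate block (0 and 0). With array weights it was 1 higher (Adcy3) and 0 lower, and the calls over all genes went from 69 higher and 11 lower to 152 and 31; the cause was not tested. Over all genes the calls were 44 and 6 without a filter, 23 and 2 under the replicate block and 41 and 2 under a sex term, and without 1 library they ranged from 15 to 34 higher and from 1 to 12 lower. The labels do not say whether same-numbered libraries belong together. Their deviations from the group means correlated at 0.016, -0.071 and 0.015. With 3 libraries per group this cannot show whether they shared a litter or a preparation.

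Of 15 members followed through the settings, 9 kept their direction wherever a value could be had; Pde10a and Sik2 had none at a filter of 5 FPKM. The log2 difference of Gnas turned to -0.059 with quantile normalization and to -0.016 with array weights, and without 1 library it ranged from -0.022 to 0.035. Without 1 library, Prkaca ranged from -0.21 to 0.0088, Adcy6 from -0.073 to 0.037, Creb1 from -0.057 to 0.026, Crtc2 from -0.070 to 0.0044 and Pde8a from -0.11 to 0.047, none past the threshold; Nr4a1 ranged from 0.026 without control 1 to 0.32 without control 2. Absolute depth is unknown, and Pde10a and Nr4a3 are the members nearest to or under the level required for testing.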
